A study of Saccharomyces cerevisiae with 8 samples.

Results

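The 10 genes described here code for the proteins that build and break down glycogen in Saccharomyces cerevisiae. They were found on the arrays by systematic name: GSY1 (YFR015C), GSY2 (YLR258W), GLG1 (YKR058W), GLG2 (YJL137C), GLC3 (YEL011W), GPH1 (YPR160W), GDB1 (YPR184W), GAC1 (YOR178C), PIG1 (YLR273C) and PIG2 (YIL045W). All 10 were among the 6225 gene names on the array and among the 5698 genes tested, which had to clear background well on 4 or more arrays in one channel. Each was read by 1 probe printed as 2 spots. All 10 were well above background in both channels on all 8 arrays, and no spot of theirs was saturated.

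RNA of exponentially growing S288C cells, the strain of the reference genome, was taken at 16, 17, 19, 20, 21, 22, 23 and 24 h of batch culture in minimal medium and labelled with Cy5. RNA of S288C cells aged 64 h was labelled with Cy3 and served as the common reference on every array. There was 1 array per time, so no time had a replicate, the dyes were not swapped, and the 64 h cells had no second sample. Whether each time was a culture of its own is not in the labels. The p-values thus measure the spread between these arrays alone, and that spread may be technical. A log2 ratio is log2 of Cy5 over Cy3: below 0, the transcript was less abundant in growing cells than in 64 h cells.

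Glycogen is a branched glucose polymer that yeast stores as growth slows and draws on when sugar is short. Glycogenin (GLG1, GLG2) attaches the first glucose units to itself, glycogen synthase (GSY1, GSY2) extends the chain from UDP-glucose, and the branching enzyme (GLC3) adds the branch points. Glycogen phosphorylase (GPH1) releases glucose 1-phosphate from chain ends, and the debranching enzyme (GDB1) removes the branches that stop it. Synthase is active when dephosphorylated, and GAC1, PIG1 and PIG2 code for proteins that bind the type 1 protein phosphatase Glc7 or glycogen synthase and are thought to bring them together.

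Across the arrays, 84.1% to 91.6% of the 12512 gene spots were well above background in Cy5 and 89.5% to 91.1% in Cy3. The 2 spots of a member differed by at most 0.40 in log2 ratio, with medians of 0.07 to 0.16 by gene. The arrays lay on 2 slides, each scanned in 1 session: slide 1 carried the 16, 19, 22, 23 and 24 h samples, as recorded, and the 17, 20 and 21 h samples were on slide 2. The recorded times of 2 arrays are in dispute. To check them, the scanner ratios were centred for each gene within each slide. Over 5600 genes, the centred ratios recorded for 20 h had r = -0.48 with the 20 h column of the authors' deposited table, but r = 0.97 with its 24 h column. Those recorded for 24 h had r = -0.39 with the 24 h column and r = 0.92 with the 20 h column. For the remaining 6 arrays the best match was the column of the same time. The 21 h array matched least well, with r = 0.62 against 0.48 for its next best column. The others had r from 0.89 to 0.98. Every time result is therefore given with the times as recorded, on the 6 arrays whose times are undisputed, and with those 2 files exchanged.

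The labels were checked against marker genes. Of 5 markers of aged or starved cells (HSP12, HSP26, SSA3, CTT1 and SPI1), all 5 were lower in growing cells on each array. HSP26 was saturated in Cy3 on all 8 arrays, HSP12 on 3 and SPI1 on 1. Their summed Cy5 signal ranged from 3271 to 26346 and their summed Cy3 signal from 177981 to 218528, and no marker was at 0. Among 5 growth markers, HXT2 and HXT3, for glucose transporters, and RPL3, for a ribosomal protein, were higher in growing cells. Cy5 was saturated on 5 arrays for RPL3 and on 3 for HXT3. RPS3 and RPL10 had measured means of -0.29 and -0.07. Both were saturated in Cy5 on all 8 arrays, which caps the growing cells' signal, so no direction is given for them. They lend the labels no support. The array recorded at 20 h stood apart for most markers. HSP12, HSP26, CTT1 and SPI1 were at their highest of the 8 arrays there, while SSA3 was at its lowest, -2.92. HXT2, HXT3 and RPL3 were at their lowest there, HXT3 at 0.34 against 2.04 to 5.58 on the others.

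The first comparison asked how growing cells differed from cells aged 64 h. Averaged over the 8 arrays, 9 of the 10 glycogen genes were lower in growing cells, 0 were higher, and GSY1 did not pass. Among all tested genes, 42.4% were lower and 40.3% higher, so a call by itself is common here. The median of the members' mean log2 ratios was -0.99, against -0.01 for all genes. Each call is an adjusted p under 0.05 from limma, with Benjamini-Hochberg adjustment over all genes, and sets the arrays against a single 64 h RNA. In a bulk culture, fewer cells holding a transcript and less of it per cell cannot be told apart.

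The 2 synthase genes stood apart from each other. The log2 ratios of GSY1 at the recorded times, from 16 h to 24 h, were -0.97, -0.74, -0.42, 1.49, -0.12, 0.34, 0.99 and -0.20. It was therefore below the 64 h level on 5 arrays and above it on those recorded at 20, 22 and 23 h. Its mean was 0.05 ± 0.22 (SE, n = 8; limma adjusted p = 0.85), and -0.15 ± 0.07 on the 6 undisputed arrays (adjusted p = 0.084). GSY2, the main synthase in stationary cells, had -1.94, -1.46, -1.40, 0.41, -0.99, -0.79, -0.07 and -1.43. Only on the array recorded at 20 h did it exceed the 64 h level. Its mean was -0.96 ± 0.22 (limma adjusted p = 0.0025), or 1.94-fold lower in growing cells. With median centring in place of loess its mean was -0.33 and did not pass (adjusted p = 0.19).

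On each of the 8 arrays GSY1 lay above GSY2, by 0.73 to 1.23 log2 units. The mean within-array difference was 1.01 ± 0.16 (SD, n = 8; exact two-sided sign-flip permutation p = 0.0078, the smallest that 8 arrays allow, and 0.041 after adjustment over 7 pairs). It was 1.11 with the scanner's ratios (adjusted p = 0.055) and 0.96 on the 6 arrays (adjusted p = 0.073). With median centring it was 0.54 ± 0.23, between 0.18 and 0.79 on the 8 arrays (exact permutation, adjusted p = 0.027), so its size depended on the dye normalization. This is a difference between measured ratios to 64 h cells and not one of abundance, since levels of different probes are not comparable. As the dyes were not swapped, whether a dye effect that differs between the probes adds to it was not tested. GSY1 and GSY2 are paralogues, as are GLG1 and GLG2, and how far each probe binds the other's transcript was not tested.

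Both glycogenin genes were lower in growing cells. GLG1 had log2 ratios of -1.11, -1.12, -1.08, 0.33, -0.70, -0.70, -0.28 and -1.03, and its mean was -0.71 ± 0.15 (SE, n = 8; limma adjusted p = 0.0017). Growing cells exceeded the 64 h level of GLG1 on 1 array, that recorded at 20 h. GLG2 had -0.71, -0.69, -0.73, -0.15, -0.61, -0.66, -0.43 and -0.60, all below 0, with a mean of -0.57 ± 0.06 (adjusted p = 2.3e-05). GLG2 was the steadiest member, spanning 0.58 log2 units over the 8 arrays. The difference of -0.14 ± 0.33 between GLG1 and GLG2 did not pass (SD, n = 8; exact sign-flip p = 0.30, adjusted p = 0.42).

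The branching enzyme gene GLC3 had log2 ratios of -1.87, -1.92, -1.38, 0.19, -1.19, -0.73, -0.11 and -1.21. Its mean of -1.03 ± 0.19 (SE, n = 8; limma adjusted p = 0.00077) was 2.04-fold lower in growing cells. GLC3 and GSY2 differed by -0.07 ± 0.21 (SD, n = 8; exact sign-flip p = 0.46), with GLC3 the higher on 4 arrays and GSY2 on the other 4. With median centring the difference was -0.48 ± 0.26, below 0 on all 8 arrays (exact permutation, adjusted p = 0.027).

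Both genes of glycogen breakdown were lower in growing cells. GPH1 had log2 ratios of -2.80, -2.47, -2.12, 0.53, -1.44, -1.11, -0.09 and -1.78. At 16 h that was 6.98-fold lower in growing cells than in 64 h cells, and at 23 h 1.07-fold lower. The mean was -1.41 ± 0.30 (SE, n = 8; limma adjusted p = 0.0016), and -0.86 with median centring (adjusted p = 0.025). GDB1 had -2.17, -1.84, -1.85, 0.39, -1.23, -1.28, -0.57 and -1.78, with a mean of -1.29 ± 0.25 (adjusted p = 0.00081). The difference between GPH1 and GDB1 was -0.12 ± 0.39 and did not pass (SD, n = 8; exact sign-flip p = 0.38). With median centring its direction turned, to 0.46 ± 0.44 (exact permutation, adjusted p = 0.055). GPH1 lay below the synthase gene GSY2 on 7 of 8 arrays, by 0.45 ± 0.40 on average (exact sign-flip p = 0.023, adjusted p = 0.041). That adjusted p was 0.082 with the scanner's ratios and 0.055 with median centring.

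Among the targeting subunits, GAC1 had the lowest mean log2 ratio of the 10 genes. Its values were -3.60, -2.85, -3.03, 0.05, -1.68, -1.50, -1.07 and -2.78, so that growing cells held 12.1-fold less than 64 h cells at 16 h. The mean was -2.06 ± 0.34 (SE, n = 8; limma adjusted p = 0.00029). PIG1, a relative of GAC1, had -1.47, -1.16, -1.32, -0.24, -1.01, -1.11, -0.88 and -1.37, and PIG2 had -0.96, -1.26, -1.12, -0.05, -0.99, -0.91, -0.78 and -0.98. Neither exceeded the 64 h level on any array. Their means were -1.07 ± 0.12 (adjusted p = 2.4e-05) and -0.88 ± 0.12 (adjusted p = 6.4e-05). GAC1 lay below PIG1 on 7 of 8 arrays, by 0.99 ± 0.87 on average (SD, n = 8; exact sign-flip p = 0.023, adjusted p = 0.041), and PIG1 below PIG2 on 7 of 8, by 0.19 ± 0.19 (p = 0.023, adjusted p = 0.041). Neither passed with the scanner's ratios (adjusted p = 0.091 and 0.18) or after median centring (adjusted p = 0.055 and 0.21).

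In order of mean log2 ratio from lowest to highest, the members ran GAC1, GPH1, GDB1, PIG1, GLC3, GSY2, PIG2, GLG1, GLG2 and GSY1. Only the step from GAC1 to GPH1, 0.64 ± 0.31 (SD of the within-array difference, n = 8), was larger than its own spread; the other 8 steps were within 1 SD. On the 6 undisputed arrays the step from GDB1 to GLC3, 0.29 ± 0.26 (SD, n = 6), was also larger than its spread. With median centring the order was GAC1, GDB1, PIG1, PIG2, GPH1, GLC3, GLG1, GLG2, GSY2 and GSY1, with GPH1 at -0.86 and GSY2 at -0.33, so only GAC1 and GSY1 had the same place in both orders. Among the 5698 genes, 3.11% had a lower mean than GAC1 and 20.6% a lower mean than GLG2. On the 6 undisputed arrays 9 members were lower, as were 43.1% of all genes. Without the array recorded at 20 h 9 members were lower, and GSY1 was at -0.16 ± 0.13 (SE, n = 7). With the slide as a block 9 members were lower, within slide 1 alone 9, and within slide 2 alone, on 3 arrays that include the one recorded at 20 h, 0, where 26.4% of all genes were lower. The means on slide 2 still lay below 0 for these 9, from -1.49 for GAC1 to -0.48 for GLG2, with a smallest adjusted p of 0.054.

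**Figure D1:**
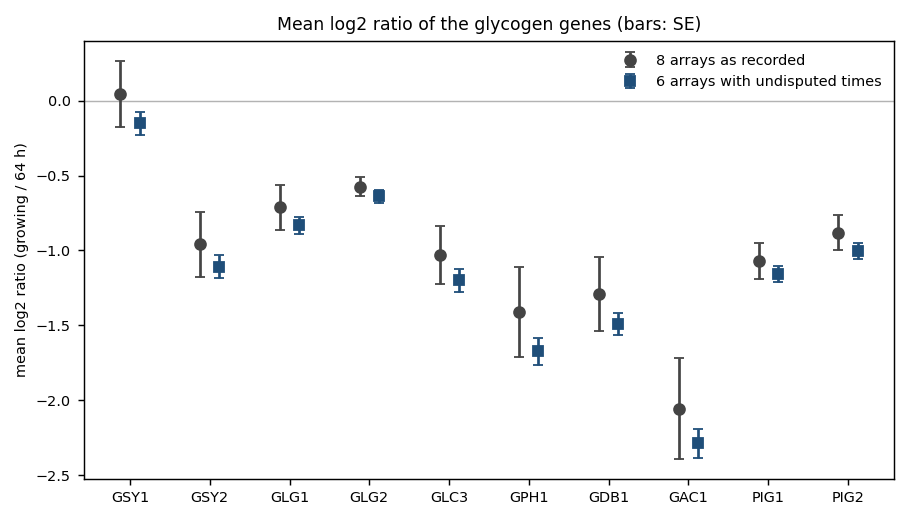
Mean log2 ratio (growing cells over 64 h cells, y axis) of the 10 genes, with SE bars, on the 8 arrays as recorded (circles) and on the 6 arrays with undisputed times (squares). GAC1 lies lowest at -2.06 and -2.29, and GSY1 lies near 0 at 0.05 and -0.15.

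The second comparison asked whether the genes changed between 16 h and 24 h of growth. On the 6 undisputed arrays 7 of the 10 members rose, 0 fell, and GLG2, PIG1 and PIG2 did not pass. Of all tested genes 5.16% rose and 3.14% fell in that fit, 294 and 179 genes. With the scanner's ratios those numbers were 253 and 243, and with median centring 312 and 112; the member count was 7 under both. The median slope of the members was 0.20 log2 units per h, against 0.00 for all genes, and all 10 slopes were above 0. With the 2 files exchanged, 8 members rose, PIG1 being the eighth, where 10.4% of all genes rose and 8.51% fell. With the times as recorded 0 of 10 rose or fell, as did 0% of all genes by limma; 0 members and 387 of all genes had an unadjusted p under 0.05. The median member slope was then 0.12 per h.

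The phosphorylase and the phosphatase targeting gene GAC1 had the steepest slopes. On the 6 arrays GPH1 rose by 0.34 ± 0.04 log2 units per h (SE, n = 6; limma adjusted p = 0.0012), 1.27-fold each hour, and GAC1 by 0.34 ± 0.04 (adjusted p = 0.0014). Between 16 h and 23 h the GPH1 ratio changed by 2.71 log2 units, or 6.54-fold. GAC1 and GPH1 ranked 8 and 9 of 5698 genes by slope. With the files exchanged, their slopes were 0.40 ± 0.05 and 0.39 ± 0.04, and as recorded 0.20 ± 0.13 and 0.23 ± 0.11 (adjusted p = 0.76 and 0.72).

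The genes of chain growth and branching rose as well. GSY1 rose by 0.25 ± 0.03, GLC3 by 0.24 ± 0.03 and GSY2 by 0.22 ± 0.03 per h on the 6 arrays (SE, n = 6; limma adjusted p = 0.0020, 0.0028 and 0.0037). The debranching gene GDB1 rose by 0.19 ± 0.03 (adjusted p = 0.0050) and the glycogenin gene GLG1 by 0.11 ± 0.02 (adjusted p = 0.019). Without the 23 h array GLG1 was at 0.08 ± 0.02 and did not pass (adjusted p = 0.16), and with the files exchanged it was at 0.16 ± 0.03 (adjusted p = 0.0078).

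The 3 members that did not pass on the 6 arrays had small slopes with tight intervals. GLG2 was at 0.03 per h (95% interval -0.01 to 0.07; limma adjusted p = 0.33), PIG2 at 0.04 (-0.01 to 0.09; adjusted p = 0.28) and PIG1 at 0.06 (0.02 to 0.11; adjusted p = 0.090). The intervals are for single genes and not adjusted. PIG1 passed with the slide as a block, at 0.07 ± 0.02 (adjusted p = 0.013), and without the 17 h array, at 0.08 ± 0.02 (adjusted p = 0.039). With the files exchanged PIG1 rose by 0.11 ± 0.03 (adjusted p = 0.028), while GLG2 at 0.05 and PIG2 at 0.09 did not pass (adjusted p = 0.061 and 0.060). In that fit the call of PIG1 was lost without the 16 h, the 19 h, the recorded 20 h or the 23 h array (limma adjusted p = 0.086, 0.053, 0.11 and 0.053). GLG2 passed there without the 22 h array (adjusted p = 0.045), and PIG2 without the 16 h array (adjusted p = 0.031). With the slide as a block in that fit both passed (adjusted p = 0.036 and 0.043), so that all 10 rose, as did 16.7% of all genes.

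All 10 members were highest on the array recorded at 20 h, as were 28.6% of all tested genes. Among the 6 arrays with undisputed times all 10 were highest at 23 h, as were 26.6% of all genes. On the array recorded at 20 h, 7 of the 10 members exceeded the 64 h level, at 22 h and 23 h only GSY1 did, and on the other arrays none did. The median log2 ratio of all tested genes was -0.02 on the array recorded at 20 h, so a value above the 64 h level was by itself common there. The median of the members was -1.67 at 16 h, -1.36 at 17 h, -1.35 at 19 h, 0.26 on the array recorded at 20 h, -1.0 at 21 h, -0.85 at 22 h, -0.36 at 23 h and -1.29 on the array recorded at 24 h. Exchanging the 2 files puts the value of 0.26 after 23 h and that of -1.29 between 19 h and 21 h. With that order GSY1 and GPH1 increased at each of the 7 steps, and GLG2 and PIG1 at 4 of 7. In the authors' deposited table, centred on 0 for each gene, all 10 members were highest in the 24 h column, from 0.45 for GLG2 to 1.98 for GAC1. In the 16 h column 8 were lowest. The 24 h column best matched the array recorded at 20 h (r = 0.97), so it is not a second source. The shares of all genes highest or lowest in those columns are not given here.

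Of the 5 markers of aged cells, HSP12 and CTT1 rose on the 6 arrays, by 0.41 and 0.13 per h (limma adjusted p = 0.0024 and 0.013). HSP26 at 0.08, SPI1 at 0.09 and SSA3 at -0.03 did not pass (adjusted p = 0.079, 0.073 and 0.40). HSP12, for a small heat shock protein, had log2 ratios of -6.21, -4.97, -5.15, -1.86, -3.96, -3.85, -2.76 and -4.69 at the recorded times, and HXT3, for a low-affinity glucose transporter, 5.58, 5.43, 5.19, 0.34, 4.50, 3.43, 2.04 and 4.97. Of the aged markers' summed Cy5 signal, which is not scaled for array brightness, HSP12 gave 729 of 3271 at 16 h, 14039 of 20480 at 23 h and 19044 of 26346 on the array recorded at 20 h. Their part in the members' slopes was not tested.

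**Figure D2:**
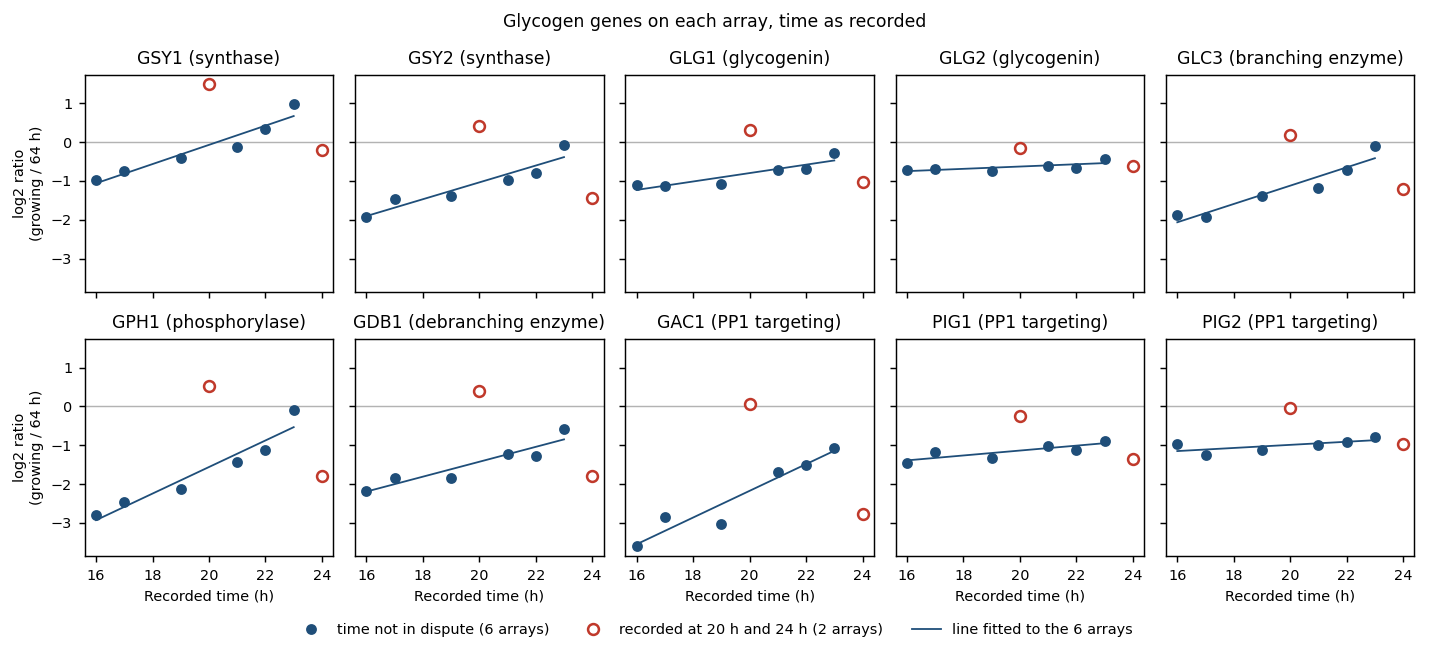
Log2 ratio (growing cells over 64 h cells, y axis) of each gene on each array against recorded time in h (x axis). Filled points are the 6 arrays with undisputed times, with the line fitted to them, and open points are the arrays recorded at 20 h and 24 h. In every panel the open point at 20 h is the highest of the 8.

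**Figure D3:**
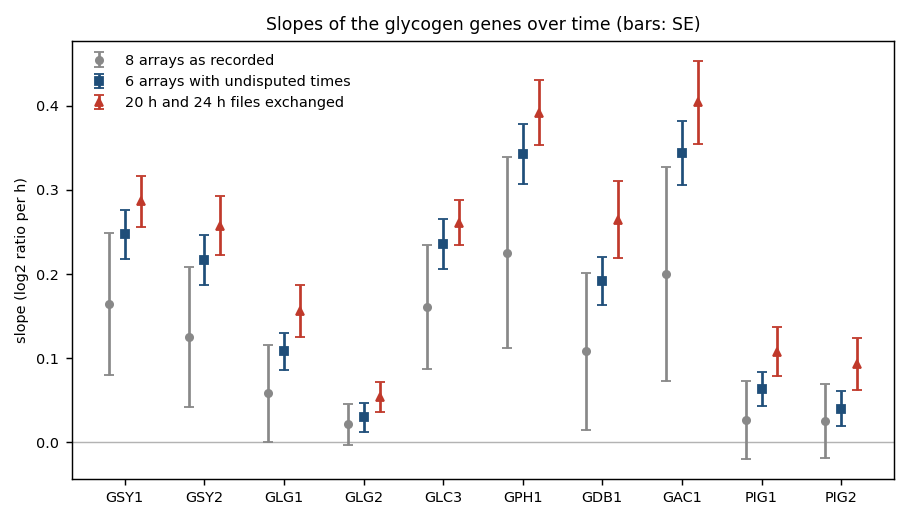
Slope of the log2 ratio per h (y axis) for each gene, with SE bars, with times as recorded (circles), on the 6 undisputed arrays (squares) and after exchange of the files for 20 h and 24 h (triangles). GPH1 and GAC1 have the steepest slopes in all 3 fits, and GLG2, PIG1 and PIG2 lie closest to 0.

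Slopes within pairs of members were compared by exact permutation of the times, a test added after the values were seen. On the 6 arrays the phosphorylase gene GPH1 rose faster than the debranching gene GDB1 by 0.15 log2 units per h (exact two-sided p = 0.0056, adjusted over 7 pairs p = 0.015). It rose faster than the synthase gene GSY2 by 0.13 (exact p = 0.0083, adjusted p = 0.015). The difference between GAC1 and PIG1 was 0.28 per h (exact p = 0.0056, adjusted p = 0.015), and that between GLG1 and GLG2 was 0.08 (exact p = 0.0069, adjusted p = 0.015). With the files exchanged these 4 differences were 0.13, 0.13, 0.30 and 0.10 (exact permutation, adjusted p = 0.0053, 0.0024, 0.00069 and 0.0053). The 2 synthase genes differed in slope by 0.03 (adjusted p = 0.31), GLC3 and GSY2 by 0.02 (adjusted p = 0.67) and PIG1 and PIG2 by 0.02 (adjusted p = 0.67), none past the threshold on the 6 arrays by the exact permutation test. With median centring the 4 differences that passed were 0.17, 0.16, 0.30 and 0.08, each with an adjusted p of 0.0097. With the scanner's ratios they were 0.08, 0.12, 0.33 and 0.09 (exact permutation, adjusted p = 0.024, 0.019, 0.0049 and 0.0049). The size of the difference between GPH1 and GDB1 thus depended on the dye normalization. The 2 synthase genes then differed by 0.06 (adjusted p = 0.051).

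Each channel was also looked at alone, after loess and quantile scaling of the average intensities, which leaves it open to dye bias. The Cy5 intensity of the growing cells spanned a wider range over the 8 arrays than the Cy3 intensity of the 64 h RNA for all 10 members, as for 81.8% of all genes. The median range of the members was 2.33 log2 units in Cy5 and 0.33 in Cy3, where all genes had 0.52 and 0.32. For GPH1 the log2 Cy5 intensity was 11.79 at 16 h and 14.36 at 23 h, while Cy3 lay between 14.45 and 14.79 on all 8 arrays. For GAC1 it was 8.47 at 16 h and 11.05 at 23 h, with Cy3 between 11.63 and 12.12. The members' spread between arrays lay mostly in the growing cells' channel. As the same 64 h RNA was on every array, a narrow Cy3 range was built into the design.

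**Figure D4:**
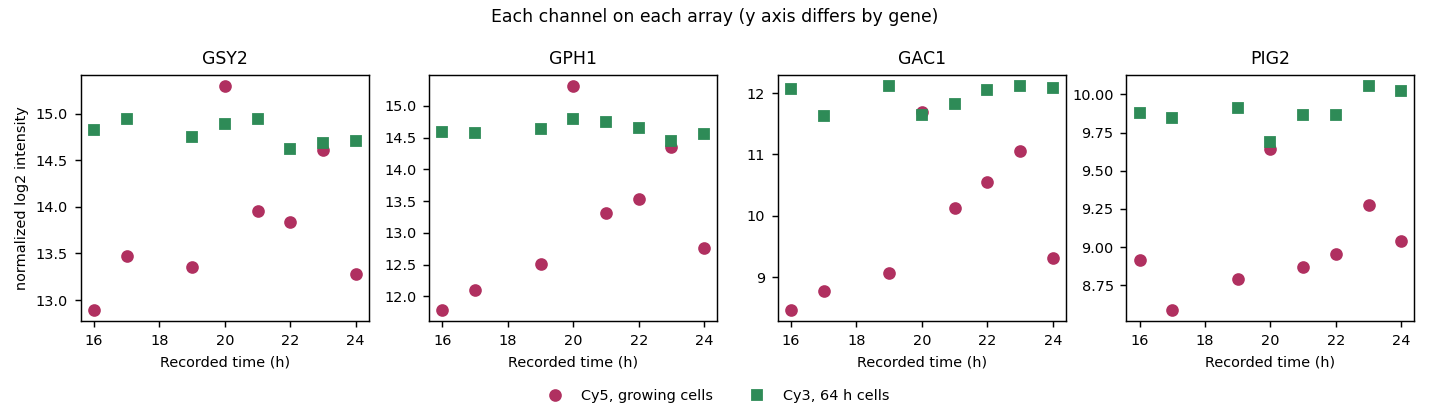
Normalized log2 intensity (y axis, a different scale in each panel) of the growing cells' Cy5 channel (circles) and of the 64 h cells' Cy3 channel (squares) against recorded time in h (x axis) for GSY2, GPH1, GAC1 and PIG2. For GPH1 the Cy3 points stay between 14.45 and 14.79 while Cy5 runs from 11.79 at 16 h to 15.32 on the array recorded at 20 h.

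Across the 8 arrays the members followed each other. Pearson's r of log2 ratio with GPH1 was 0.997 for GSY1, 0.988 for GSY2 and GLC3, between 0.960 and 0.970 for GLG1, GDB1 and GAC1, 0.907 for GLG2, 0.893 for PIG1 and 0.835 for PIG2. On the 6 undisputed arrays it was 0.735 for PIG2 and between 0.879 and 0.994 for the others. These are descriptions over arrays that share the Cy3 RNA and a common course in time. Outside the lists used here, 4951 genes had all spots unsaturated and were well above background throughout. The 5 of these most like GSY2 were TFS1, an inhibitor of carboxypeptidase Y, XKS1, xylulokinase, PRX1, the mitochondrial peroxiredoxin, SYP1, an endocytosis protein, and COS111, with r between 0.992 and 0.995 over 8 arrays. The 5 most like GPH1 were SYP1, YMR196W, GAD1, glutamate decarboxylase, GOR1, glyoxylate reductase, and MSC1, with r between 0.995 and 0.996. The median r of all 4951 was 0.081 with GSY2 and 0.083 with GPH1. Likeness in course did not mean likeness in level against 64 h cells: the mean log2 ratio of MSC1 was -3.10 and that of GOR1 -0.25.

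The supply of UDP-glucose, the substrate of glycogen synthase, was followed through 3 further genes. PGM2, the major phosphoglucomutase, had log2 ratios of -2.45, -2.12, -1.95, 0.44, -1.26, -1.10, -0.35 and -1.74 and was lower in growing cells at a mean of -1.32 ± 0.26 (SE, n = 8; limma adjusted p = 0.0011). UGP1, UDP-glucose pyrophosphorylase, was higher in growing cells at 0.64 ± 0.16 (adjusted p = 0.0038), with Cy5 saturated on 1 array. PGM1, the minor phosphoglucomutase, was also higher, at 1.13 ± 0.05, and stayed between 0.98 and 1.38 on the 8 arrays. On the 6 arrays PGM2 rose by 0.27 ± 0.03 per h and UGP1 by 0.15 ± 0.02 (limma adjusted p = 0.0012 and 0.0037), while PGM1 was at -0.02 ± 0.02 (adjusted p = 0.70).

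Of 14 other enzymes and regulators of glycogen, 10 were lower in growing cells, 2 were higher and 2 did not pass. Among all tested genes 42.4% were lower and 40.3% higher. The lowest were SGA1, a glucoamylase of sporulating cells, at -2.17 ± 0.08 with Cy5 well above background on 7 arrays, and IGD1, which inhibits the debranching enzyme, at -2.00 ± 0.14 (SE, n = 8; limma adjusted p = 8.8e-09 and 8.1e-07). GLC7, the catalytic subunit of the type 1 phosphatase, was at -0.40 ± 0.10, and its regulators GLC8 and REG1 were at -0.59 and -0.62. The Pho85 kinase, which phosphorylates synthase, and its cyclins PCL8 and PCL10 were at -0.47, -0.67 and -0.77, and SNF1, the kinase of glucose derepression, at -0.13. PAS kinase, which acts on Ugp1 and Gsy2, was split, PSK1 being lower at -0.88 and PSK2 higher at 0.79. The Pho85 cyclin gene PCL6 was higher at 0.22, and PCL7 at -0.09 and the phosphatase inhibitor YPI1 at 0.05 did not pass.

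Over time, 1 of these 14 rose on the 6 arrays and 0 fell, where 5.16% of all genes rose. PSK1 rose by 0.08 ± 0.02 per h (SE, n = 6; limma adjusted p = 0.029). With the files exchanged 4 of 14, PSK1, GLC8, YPI1 and IGD1, rose and 0 fell, where 10.4% of all genes rose. IGD1 was at 0.10 ± 0.03 on the 6 arrays (adjusted p = 0.061) and at 0.14 ± 0.03 with the files exchanged (adjusted p = 0.011). The median slope of the 14 on the 6 arrays was 0.03, against 0.20 for the 10 members.

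Trehalose, the other storage carbohydrate of yeast, gave a like direction with smaller slopes. Of its 7 genes, 5 were lower in growing cells, 1, NTH2, was higher and TPS3 did not pass, with a median mean log2 ratio of -0.83. Among all tested genes 42.4% were lower and 40.3% higher. On the 6 arrays TSL1, a regulatory subunit of trehalose synthase, rose by 0.19 per h, TPS2, trehalose phosphatase, by 0.12 and ATH1, the acid trehalase, by 0.10 (limma adjusted p = 0.0045, 0.0057 and 0.038). The other 4 did not pass, and the median slope was 0.08. Of all genes 5.16% rose in that fit. With the files exchanged 5 trehalose genes rose, where 10.4% of all genes did. The array recorded at 20 h again had the highest trehalose median, 0.30, against -1.26 to -0.40 on the other arrays. Whether the slopes of both sets differ was not tested.

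**Figure D5:**
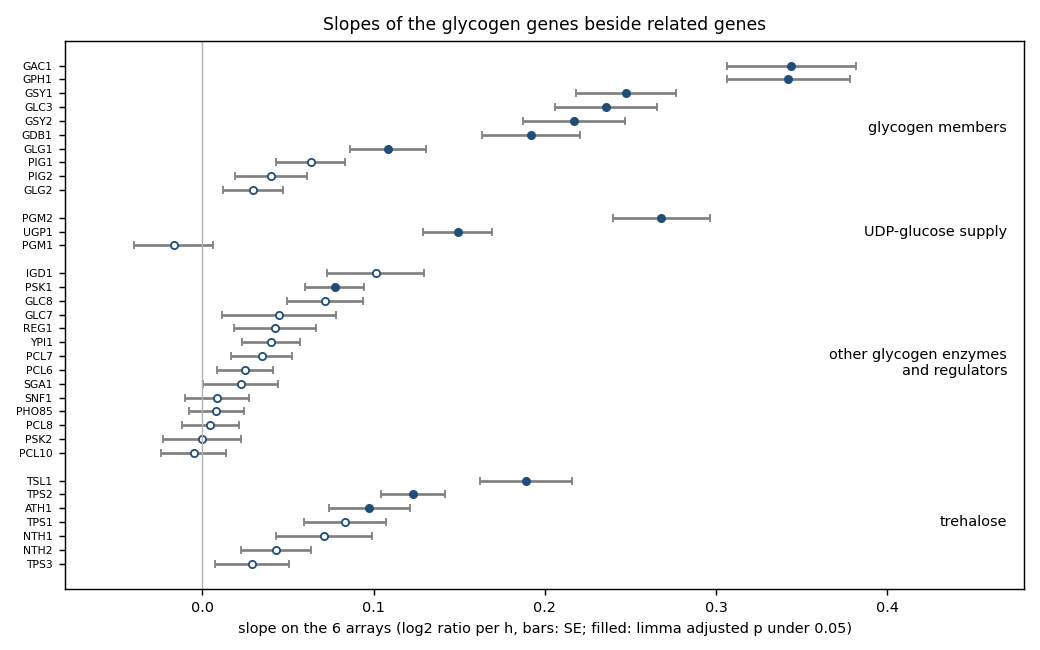
Slope of the log2 ratio per h on the 6 undisputed arrays (x axis), with SE bars, for the 10 glycogen genes and for the genes of UDP-glucose supply, other glycogen enzymes and regulators, and trehalose. Filled points passed limma's adjusted threshold of 0.05: 7 of 10 glycogen genes, 2 of 3 for UDP-glucose supply, 1 of 14 regulators and 3 of 7 trehalose genes. All of these rose, and of all tested genes 5.16% rose and 3.14% fell.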

How the data were processed

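Gene expression was measured on 8 Agilent 2-colour arrays. Per the file headers, Agilent Feature Extraction 10.5.1.1 made the deposited intensity values of each spot, of which the median signals and median local backgrounds were used. The scanner's own ratio, Cy5 over Cy3 on a log10 scale, is deposited too, already corrected for background and dye. Other columns mark each spot, per the file headers, as well above background, saturated or an outlier (a 0 or 1 flag). The authors' deposited value table gives 5609 genes as log2 values centred on 0 per gene. Its normalization is not stated in the labels or files, and its direction, from its values, was that of Cy5 over Cy3.

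Background was corrected with normexp (offset 50), ratios were normalized by loess with control spots at weight 0, spots with an outlier mark were dropped, and each probe's spots were averaged (limma 3.58.1, R 4.3.3). For 29 genes with several probes the brightest was used. Of 6225 names, 5737 matched a locus tag of the R64 reference table. The design was annotated on sacCer2, so no coordinates are given. A line of log2 ratio on centred time was fitted with lmFit and eBayes; its intercept gives the mean ratio and its slope the change per h, adjusted by Benjamini-Hochberg over 5698 genes. Differences between members were tested by exact sign flips (256 for 8 arrays) and exact permutation of times (720 orders of 6 arrays, 40320 of 8).

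All 10 members are named, as are 3 fixed related lists. For likeness the rule took the 5 genes with the highest r with GSY2 and with GPH1. Members and lists were chosen with earlier results of these data known. On simulated data over 5698 genes, the 6-array slope test recovered 70 of 100 genes with 0.1 per h and 95 of 100 with 0.2 per h. The test on 8 arrays as recorded recovered 61 and 90. Genes called falsely numbered 10 on the 6 arrays and 7 on the 8 arrays, at either slope. In the real data as recorded, GAC1 at 0.20 and GPH1 at 0.23 per h did not pass. The simulated recovery therefore does not describe that fit. Alternatives were other background corrections and scalings, no dim filter, other spot averaging, the slide, the authors' table and each array left out. The permutation of times, and the slide block and left-out arrays in the exchanged fit, and median centring for differences between members, were chosen after seeing the data. The number of arrays limits the precision.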

Additional observations from a re-analysis of the deposited data

Results flagged for a closer look

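Among the genes of the lists used, 5 had 1 array far from the other 7, by the gap to the nearest array over the whole range (above Dixon's critical value for 8 arrays). In each the array was the one recorded at 20 h, and it was the highest. The ratio was 0.603 for PIG2 (log2 ratio -0.05 there), 0.644 for the kinase gene PHO85 (-0.19), 0.663 for its cyclin gene PCL8 (-0.28), 0.535 for the trehalose gene TPS3 (0.69) and 0.527 for the aged-cell marker SPI1 (-4.79). Chance flags about 1 in 20 genes, and 7.97% of all 5698 genes passed the same value. The other 9 members did not pass, although all 10 were highest on that array.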

How the results depend on the processing

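The 9 members lower in growing cells were 8 with median centring, 9 on the 6 arrays, 0 within slide 2 alone, and 9 in the other settings tried, including each array left out. Of all genes, 26.4% were lower within slide 2 alone and 39.1% to 43.7% in the other settings. The mean of GSY1, near 0, turned negative within slide 1 alone (-0.051), on the 6 arrays (-0.15) and without the array recorded at 20 h (-0.16) or that at 23 h (-0.087), and ran from -0.16 to 0.19 over the arrays left out in turn. As recorded, the count of rising members was 0 in every scanner-file setting that kept the recorded times, as was that of all genes. The count of members was 8 with the files exchanged, where 10.4% of all genes rose. In the authors' deposited table it was 9, where 15.9% of all genes rose and 18.5% fell. With the times as recorded, the slope of PIG1 was -0.013 without the 16 h array, the lowest of a range up to 0.070. On the 6 arrays the count of rising members was 6 to 8, while 1.42% to 12.2% of all genes rose, depending on the setting. With the files exchanged the count was 7 to 10, while 6.05% to 16.7% of all genes rose. The difference between GLC3 and GSY2 was 0.0083 with the scanner's ratios and -0.48 with median centring, which turned that between GPH1 and GDB1 to 0.46. On 6 arrays the sign-flip p cannot go below 0.031, and no pair passed there after adjustment. Over all genes, slide 2 alone called 2753 mean ratios, against 4716. The 473 slopes called on the 6 arrays became 1190 with the slide as a block, 1252 within slide 1, 994 in the authors' table, and 195, 291, 205 and 106 without the 16, 19, 22 or 23 h array. The 1077 called with the files exchanged became 1700 with the slide as a block, and 676, 559 and 714 without the 16 h array, the one recorded at 20 h or the 23 h array. Causes were not tested. Differences between members were paired within arrays. No pairing of samples between groups was possible because the labels give 1 group with no replicate numbers.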
